A study of Homo sapiens with 6 samples.

Results

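The Eph receptors are the largest family of receptor tyrosine kinases. Their ligands, the ephrins, are held on the surface of neighbouring cells, ephrin-A by a lipid anchor and ephrin-B by a transmembrane domain, and contact between cells sends signals into both of them that alter adhesion, shape and migration. EPHA receptors bind mainly ephrin-A and EPHB receptors mainly ephrin-B. EPHA2 is often abundant in lung adenocarcinoma, and EPHA10 and EPHB6 are known as members whose kinase domain is not catalytically active. The 9 receptors described here, EPHA1, EPHA2, EPHA4, EPHA10, EPHB1, EPHB2, EPHB3, EPHB4 and EPHB6, were found by gene symbol among the 58676 listed genes and are 9 of the 14 human Eph receptors in the table. The members were chosen by measured TPM: EPHA10 was selected on its lower TPM in A549 Rec in these same libraries, and the others as relatives listed with it, so the EPHA10 difference is a description and carries no test.

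The cells were A549, an established human lung adenocarcinoma line. A549 Rec (3 libraries) stably expressed a myc-tagged cDNA of human recoverin, the calcium sensor of retinal photoreceptors, and A549 MOCK (3 libraries) carried the vector without it. Both were selected with puromycin for a retroviral vector and grown as 2D cultures, for 6 days by the labels, and the recoverin level is that of forced expression. Values are TPM, the reads of a gene over its length brought to a common sum in each library, which allows levels of different genes to be set side by side. RCVRN, the recoverin gene, was listed at 0 TPM in the 3 A549 MOCK libraries and at 322, 338 and 339 TPM in A549 Rec, as labelled.

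The libraries held 15189318 to 18579309 reads, recovered from the steps between TPM values. Replicate 3 stood apart in both groups: mitochondrially encoded genes took 34.5% of TPM in A549 MOCK replicate 3 and 26.9% in A549 Rec replicate 3, against 13.3% to 17.3% in the other 4 libraries. Summed TPM of 6 epithelial markers ran from 4785 to 6486 in A549 MOCK and from 6112 to 6982 in A549 Rec, with 4 of them at 1 TPM or more in every library and EPCAM and KRT19 low (means over the libraries of 2.08 and 0.136 TPM). The 4 leukocyte markers summed to 5.19 to 7.21 TPM in A549 MOCK and 6.83 to 8.39 in A549 Rec, most of it CD14. CD3E was at 0. In the same order, the 3 endothelial markers summed to 0.709 to 0.912 and 0.483 to 0.699 TPM. The 5 fibroblast markers summed to 3.32 to 5.88 and 3.39 to 5.59 TPM, most of it COL1A1, with COL1A2 at 0. The 4 neuronal markers summed to 24.3 to 28.2 and 23.5 to 26.1 TPM, most of it SNAP25. The part of these markers and of the mitochondrial share in the results was not tested beyond the values given below.

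The receptors differ in the part of the kinase domain that transfers phosphate, and this is why EPHA10 and EPHB6 are set apart. The coding bases of the catalytic loop are printed 5′ to 3′ on the coding strand, from GRCh38 with the GENCODE v44 canonical transcripts. Capitals mark the codons aligned with the histidine, arginine and aspartate motif of active kinases.
EPHA2: gtgCACCGTGACctggctgcccgc
EPHA1: gtcCACCGGGACctggctgccaga
EPHA4: gtgCATCGTGATctggccgcacgg
EPHB2: gttCACCGTGACctggctgcccgc
EPHB3: gtgCACCGCGACctggctgctcgc
EPHB4: gtcCACCGAGACctggctgctcgc
EPHA10: gttCACCGGGGCctggcagctcgc
EPHB6: gtcCATCGCTCGctgtctgcccac
The EPHA2 stretch lies at chr1:16132160-16132183 on the minus strand in exon 13, the EPHA10 stretch at chr1:37720441-37720464 on the minus strand in exon 13, and the EPHB6 stretch at chr7:142869064-142869087 on the plus strand in exon 16. With positions counted from 1 at the 5′ end of each stretch and EPHA2 as the reference, the capitals of EPHA10 carry T9G and A11G, and those of EPHB6 carry C6T, T9C, G10T, A11C and C12G. In EPHA1, EPHA4, EPHB2, EPHB3 and EPHB4 the capitals encode the residues of EPHA2, and in EPHA10 and EPHB6 they do not.

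EPHA10 was also compared with EPHA2, and with no other receptor here, at the codon of the lysine that holds ATP in active kinases, marked by capitals in the next stretches.
EPHA2: gtggccatcAAGacgctgaaa
EPHA10: gtagccgtgCATatgctgagg
These lie at chr1:16133286-16133306 and chr1:37721766-37721786, and against EPHA2 the capitals of EPHA10 carry A10C and G12T. These are reference sequences and not reads of the A549 libraries.

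A549 expressed a small set of Eph receptors at very unequal levels, led by EPHA2. Of the 9 receptors, 8 were above 0 TPM in every library and 5 passed the filter of 1 TPM or more in at least 3 libraries (EPHA1, EPHA2, EPHA4, EPHB2 and EPHB4). Over the 6 libraries the means were 104 ± 19.5 TPM for EPHA2, 33.2 ± 5.86 for EPHB4, 21.7 ± 1.74 for EPHB2, 8.73 ± 1.36 for EPHA1 and 1.73 ± 0.207 for EPHA4 (SD, n = 6). EPHB6, EPHA10 and EPHB3 averaged 0.737 ± 0.205, 0.635 ± 0.324 and 0.389 ± 0.155 TPM, and EPHB1 was at the limit of detection. EPHA2 stood between the 92.7 and 97.1 percentiles of the genes above 0 in a library, and EPHA10 between the 13.6 and 27.9 percentiles.

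The order was the same in every library for the abundant receptors. EPHA2 exceeded EPHB4 in 6 of 6 libraries with a mean 3.13 times as high, EPHB4 exceeded EPHB2 in 6 of 6 at 1.53 times, and EPHB2 exceeded EPHA1 in 6 of 6 at 2.48 times, with no overlap of their ranges. EPHA4 lay above EPHB6 in all 6 libraries. Below it the ranges over the 6 libraries overlapped, at 0.419 to 0.969 TPM for EPHB6, 0.294 to 1.12 for EPHA10 and 0.197 to 0.604 for EPHB3. EPHA10 was above EPHB6 in the 3 A549 MOCK libraries and below it in the 3 A549 Rec libraries. As EPHA10 was chosen for its fall, this change of order restates that choice and is a description. In A549 MOCK replicate 3 the levels were close, at 0.787 and 0.736 TPM from 36 and 22 reads.

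**Figure D1:**
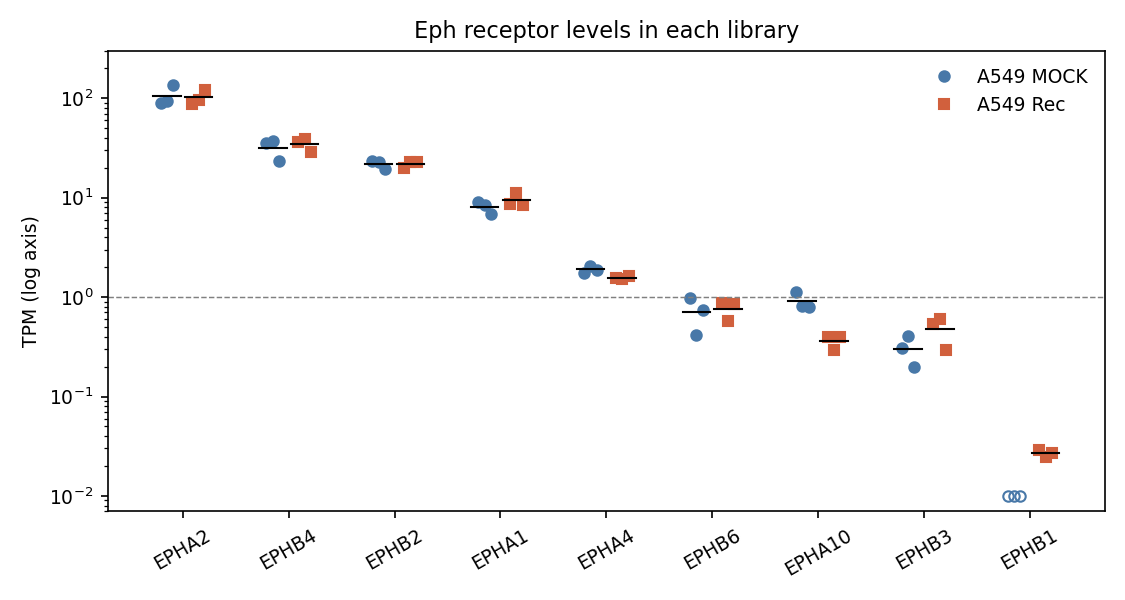
TPM of each of the 9 Eph receptors (log axis) in the 3 A549 MOCK libraries (circles) and the 3 A549 Rec libraries (squares), with replicates 1, 2 and 3 from left to right, black bars for group means and a dashed line at 1 TPM; open circles at the bottom stand for 0 TPM. EPHA2 is highest in every library, EPHA10 is the receptor whose 3 A549 Rec values (0.294 to 0.396) all lie well below its 3 A549 MOCK values (0.787 to 1.12), and EPHB1 has 1 read in each A549 Rec library.

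Of the 5 other Eph receptors in the table, EPHA5 and EPHA6 were detected in every library. EPHA5 was the one that passed the filter, at 6.12 ± 1.15 TPM in A549 MOCK, against 6.31 ± 0.824 in A549 Rec (SD, n = 3), and its range overlapped that of EPHA1. EPHA6 was at 0.442, 0.452 and 0.708 TPM in A549 MOCK, against 0.223, 0.435 and 0.362 in A549 Rec, lower in each pair (log2 ratios of -0.99, -0.05 and -0.97) and without overlap of the groups. The exact permutation p was 0.1, two-sided, the smallest that 3 libraries against 3 can give, and limma-voom gave -0.66 (SE 0.34, adjusted p = 0.9997). Its reads, 42, 42 and 75 against 21, 48 and 36, did overlap. EPHA3 had 1 read in all libraries together, and EPHA7 and EPHA8 were listed at 0 in each. The sum over the 14 receptors was 178 ± 13.5 TPM in A549 MOCK, against 177 ± 14.2 in A549 Rec (SD, n = 3). EPHA2 made up 53.1%, 54.6% and 69.6% of it in A549 MOCK, against 54.0%, 53.6% and 63.8% in A549 Rec, the highest share being that of replicate 3 in both groups.

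EPHA10 was lower in A549 Rec within every same-numbered pair. Its level was 1.12, 0.822 and 0.787 TPM in A549 MOCK, against 0.393, 0.294 and 0.396 in A549 Rec, and the groups did not overlap. The means were 0.910 ± 0.183 and 0.361 ± 0.0580 TPM (SD, n = 3), 2.52 times as high in A549 MOCK, and the log2 ratios within pairs were -1.51, -1.48 and -0.99. These values chose the gene, so nothing is read from them beyond their size. For scale, 3.04% of the 21614 genes with at least 10 reads were lower in A549 Rec without overlap of the groups and 2.81% were higher, and 9.82% were lower in each pair.

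Few reads stood behind these levels. EPHA10 (chr1:37713880-37765133, minus strand, GRCh38) was covered by 46, 33 and 36 reads in A549 MOCK, against 16, 14 and 17 in A549 Rec, 115 and 47 in all. The 95% Poisson intervals, which cover counting error alone, ran from 22.7 to 61.4 reads over the A549 MOCK libraries and from 7.65 to 27.2 over the A549 Rec libraries, so they touch between the groups although the counts do not. Its exons share no base with another gene in GENCODE v44, and the length behind its TPM, 8152 bases, equals the exon length there. On the log2(TPM + 1) scale, which compresses low levels, the difference was -0.49, and with the reads as input (limma-voom) it was -1.34. The receptor made up 0.516 ± 0.134% of the Eph sum in A549 MOCK, against 0.205 ± 0.0391% in A549 Rec (SD, n = 3). In bulk RNA, fewer cells with the transcript and less transcript per cell cannot be told apart.

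EPHB6, the other receptor with an altered catalytic loop, had pairs in both directions. It was at 0.969, 0.419 and 0.736 TPM in A549 MOCK, against 0.865, 0.578 and 0.855 in A549 Rec, with lower, higher and higher values within the pairs (log2 ratios of -0.16, 0.46 and 0.22). The groups overlapped, and an exact permutation test, two-sided, gave p = 0.700, where 3 libraries against 3 cannot go below 0.1. Its reads were also few, 26, 11 and 22 in A549 MOCK, against 23, 18 and 24 in A549 Rec. They were fewer than those of EPHA10 in A549 MOCK (59 against 115 in all) and more in A549 Rec (65 against 47). The difference between EPHA10 and EPHB6 in their response was not tested, since EPHA10 was chosen for its own.

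**Figure D2:**
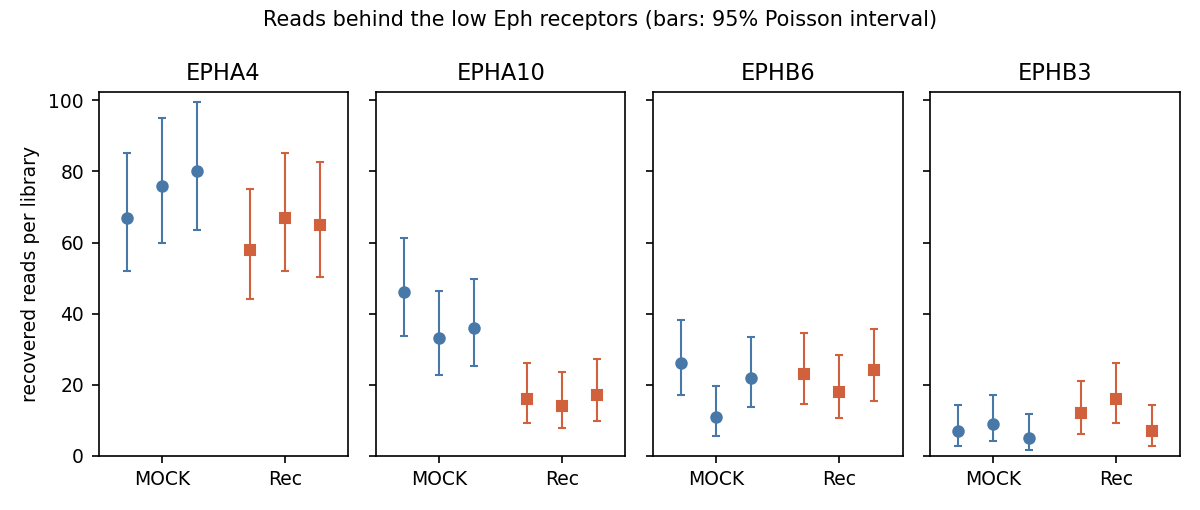
Reads per library recovered from the TPM values for EPHA4, EPHA10, EPHB6 and EPHB3 (one panel each), with replicates 1, 2 and 3 from left to right for A549 MOCK (circles) and A549 Rec (squares) and bars for the 95% Poisson interval. EPHA10 has 33 to 46 reads in A549 MOCK, against 14 to 17 in A549 Rec, while the counts of EPHA4, EPHB6 and EPHB3 overlap between the groups.

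None of the 5 receptors past the filter was called between A549 Rec and A549 MOCK by limma when both an adjusted p under 0.05 and a 2-fold change were required, the rule under which 0.00574% of the 17408 tested genes were called higher, RCVRN alone, and 0.00% lower. At an unadjusted p under 0.05, again 0 of 5 passed, beside 1.02% of tested genes higher and 1.04% lower, and with a block for the replicate number 0 of 5 passed beside 2.27% higher and 1.83% lower. By limma-voom on the reads, the adjusted p of each of these 5, and of EPHB3 and EPHB6, was 0.9997. A p that misses the threshold does not show equal levels, and the standard errors below give the precision.

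EPHA2 carried the largest number of reads (6943 in A549 MOCK, against 6816 in A549 Rec). It was at 89.4, 94.0 and 135 TPM in A549 MOCK, against 87.6, 96.0 and 122 in A549 Rec, with log2 ratios of -0.03, 0.03 and -0.15 within the pairs. The fitted log2 difference was -0.05 (SE 0.20, limma adjusted p = 0.9997), and its SE with the replicate block was 0.07. Replicate 3 was the highest library of each group, so the spread lay between replicates and not between A549 Rec and A549 MOCK. Leaving out A549 MOCK replicate 3 turned the sign of the difference (0.14).

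EPHA1 was at 9.06, 8.40 and 6.85 TPM in A549 MOCK, against 8.59, 11.1 and 8.42 in A549 Rec. The log2 difference was 0.18 (SE 0.15, limma adjusted p = 0.9997), with a lower value in the first pair and higher values in the other pairs. The groups overlapped (exact permutation p = 0.400, two-sided).

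EPHA4, which binds ligands of both ephrin classes, was the tested receptor whose groups did not overlap on deposited TPM. It was at 1.76, 2.04 and 1.89 TPM in A549 MOCK, against 1.54, 1.52 and 1.63 in A549 Rec, lower in each pair (log2 ratios of -0.20, -0.43 and -0.21). The exact permutation p was 0.1, the smallest that this design can give, and the fitted log2 difference was -0.18 (SE 0.17, limma adjusted p = 0.9997; limma-voom -0.30, SE 0.19). The groups lay apart in this direction for 2.69% of tested genes and in the other for 2.47%, and 9.66% were lower in each pair, so 1 of 5 receptors is too few to be read against them. Its reads numbered 67, 76 and 80 in A549 MOCK, against 58, 67 and 65 in A549 Rec, so read counts of the groups do overlap before scaling, and 4.67% of its exon bases are shared with a gene on the opposite strand.

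Among the EPHB receptors, EPHB4 and EPHB3 were higher in each pair, with groups that overlapped. EPHB4, the receptor of ephrin-B2 in vessel development, was at 35.1, 36.8 and 23.6 TPM in A549 MOCK, against 36.0, 39.0 and 28.7 in A549 Rec (log2 ratios of 0.03, 0.08 and 0.28). Replicate 3 was the lowest library of each group, and the fitted difference of 0.13 (SE 0.20, limma adjusted p = 0.9997) became -0.07 without A549 MOCK replicate 3. EPHB3 was at 0.307, 0.403 and 0.197 TPM in A549 MOCK, against 0.530, 0.604 and 0.293 in A549 Rec (log2 ratios of 0.79, 0.58 and 0.58), from 7, 9 and 5 reads against 12, 16 and 7. Its groups overlapped (exact permutation p = 0.3, two-sided), and limma-voom gave 0.61 (SE 0.47). Of the tested genes 13.1% were higher in each pair, and of the genes with at least 10 reads 13.2%.

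EPHB2 was at 23.1, 22.6 and 19.2 TPM in A549 MOCK, against 19.8, 22.7 and 22.9 in A549 Rec. Its pairs went in different directions (log2 ratios of -0.22, 0.01 and 0.25), with a fitted difference of 0.01 (SE 0.12, limma adjusted p = 0.9997). EPHB1 was listed at 0 in the 3 A549 MOCK libraries and at 0.0288, 0.0246 and 0.0273 TPM in A549 Rec, 1 read each. Its 3 reads over all libraries together do not exceed the floor of 3 reads, so no fold change is given. Its apparent separation is not read as a difference.

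**Figure D3:**
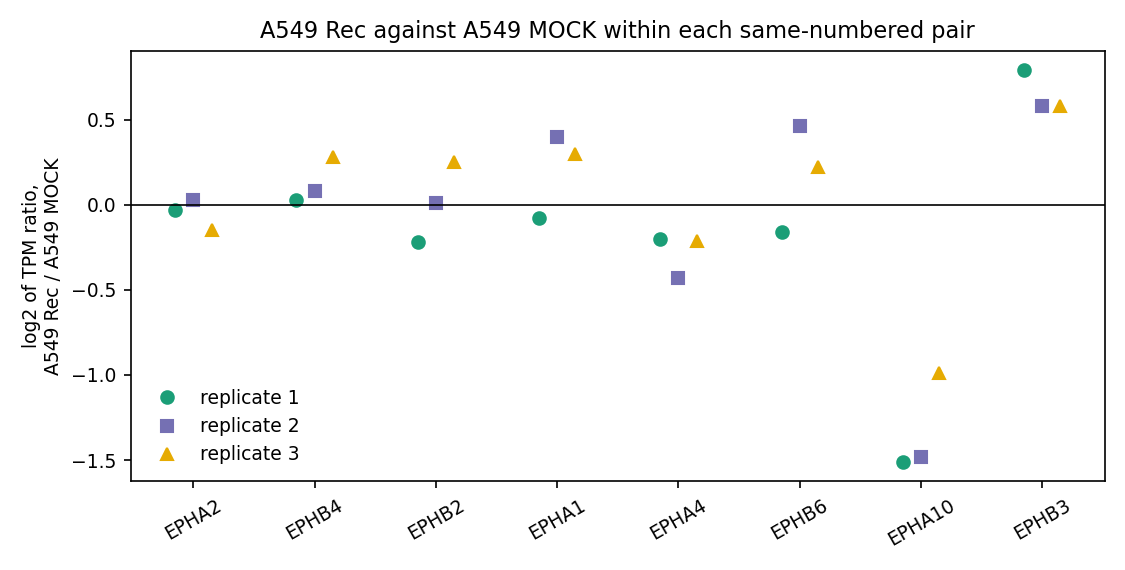
Log2 ratio of TPM in A549 Rec to TPM in A549 MOCK within each same-numbered pair (y axis) for the 8 receptors detected in every library, ordered by mean TPM. EPHA10 lies at -1.51, -1.48 and -0.99 and EPHA4 is below 0 in the 3 pairs, EPHB4 and EPHB3 are above 0 in the 3 pairs, and the other receptors have pairs on both sides.

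EPHA2 and EPHB4 went opposite ways in replicate 3. EPHA2 in replicate 3 was 1.47 times the mean of the other libraries in A549 MOCK, against 1.32 times in A549 Rec, and EPHB4 was 0.655 and 0.765 times. After TPM was rescaled without the mitochondrially encoded genes, EPHA2 stood at 1.92 and 1.54 times and EPHB4 at 0.854 and 0.887 times, so the excess of EPHA2 in replicate 3 was larger on that scale and the deficit of EPHB4 smaller. On that scale the median tested gene was shifted by 0.10 (log2) in A549 MOCK replicate 3 and 0.04 in A549 Rec replicate 3. EFNA1, an ephrin-A ligand of EPHA2, was also high there, at 1.69 times in A549 MOCK, against 1.15 times in A549 Rec (2.20 and 1.33 times after rescaling). With 1 such library in each group, the EPHA-class sum was 150 TPM in A549 MOCK replicate 3 and 138 in A549 Rec replicate 3, against 105 to 116 in the other 4. The titles of the replicate 3 libraries carry no number, unlike those of the other replicates. The authors' methods name NovaSeq and GenoLab M sequencing without assigning libraries to either, and a part of the sequencer was not tested. What else replicate 3 differed in is not given in the labels.

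**Figure D4:**
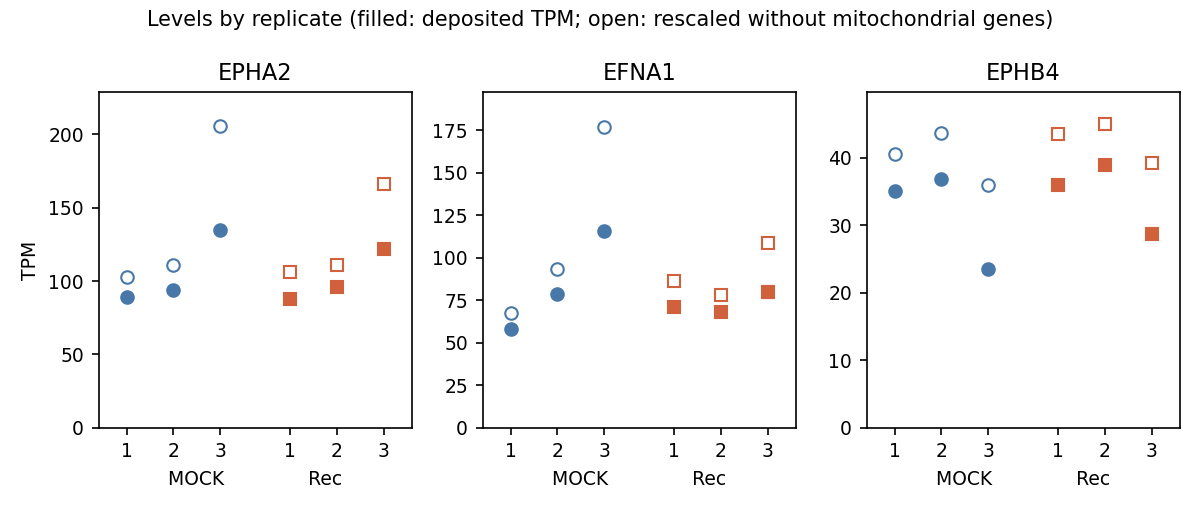
TPM of EPHA2, EFNA1 and EPHB4 (y axes from 0) in replicates 1, 2 and 3 of A549 MOCK (circles) and A549 Rec (squares), as deposited (filled) and rescaled without mitochondrially encoded genes (open). EPHA2 and EFNA1 are highest in replicate 3 of both groups on both scales, and EPHB4 is lowest there on both scales.

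The ligands were present on both sides of the family. EFNA1 led at 84.3 ± 29.1 TPM in A549 MOCK, against 73.0 ± 6.17 in A549 Rec, followed by EFNB1 at 23.2 ± 4.26 and 23.3 ± 2.21, EFNA4 at 18.4 ± 4.93 and 16.6 ± 2.50, EFNA5 at 9.29 ± 1.10 and 9.53 ± 2.21, EFNB2 at 8.99 ± 1.23 and 8.36 ± 0.297 and EFNA3 at 7.92 ± 2.01 and 7.60 ± 2.55 (SD, n = 3). EFNB3 was at 1.78 ± 0.964 and 1.52 ± 0.256 TPM and EFNA2 at 0.609 ± 0.208 and 0.708 ± 0.253. No ephrin passed limma's test at an adjusted p, and 0 of the 7 past the filter had an unadjusted p under 0.05. Ephrin-A ligands summed to 121 ± 21.7 and 107 ± 1.53 TPM and ephrin-B ligands to 34.0 ± 6.19 and 33.2 ± 2.05, beside 124 ± 22.8 and 120 ± 16.6 for the EPHA receptors and 54.4 ± 9.35 and 57.6 ± 5.11 for the EPHB receptors.

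The signalling partners of the family were largely detected, with no called difference. The lists of 75 genes hold the other Eph receptors, the ephrins and the downstream genes, and 63 of them passed the filter. Of these, 0 passed limma at an adjusted p under 0.05, 0 at an unadjusted p under 0.05, and 0 with the replicate block. Their median log2 difference was 0.03, beside 0.02 over all tested genes. Of the exchange factors and GTPase-activating proteins, 12 of 16 were tested and 10 had a positive difference, as did 9853 of the 17408 tested genes. ARHGAP35, ARHGEF16 and RASA1 were the most abundant (MOCK means of 62.8, 35.8 and 26.8 TPM), and VAV3 (0.14) and CHN1 (0.10), which act on small GTPases, had the largest log2 differences among those tested. TIAM1, which did not pass the filter, differed by 0.14 at a mean of 0.387 TPM.

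Of the small GTPases and their kinases, 9 of 10 were tested. RHOA, RAC1 and RRAS were at 383, 242 and 108 TPM in A549 MOCK, against at 411, 264 and 103 in A549 Rec. HRAS had the largest log2 difference of the lists, 1.19 (SE 0.78, limma adjusted p = 0.9997), which rested on A549 Rec replicate 1. It was at 1.28, 5.69 and 4.23 TPM in A549 MOCK, against 30.8, 7.48 and 2.56 in A549 Rec, and the next in that list, RAP1A, differed by 0.13. CDC42, a GTPase that cells in general use, was listed at 0.428 to 0.733 TPM, a level set beside 242 TPM for RAC1, and how reads shared with near-identical copies were counted is not stated.

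Among the tyrosine kinases that relay Eph signals, all 8 were tested, with SRC at 108, ABL1 at 53.6 and YES1 at 44.1 TPM in A549 MOCK, and ABL2 (-0.14) and YES1 (0.13) differed most on the log2 scale. Of 22 adaptors and phosphatases, 21 were tested. SHC1, PTPN11 and INPPL1, the last an SH2-domain phosphatase that binds EPHA2, were at 185, 128 and 107 TPM in A549 MOCK, and ANKS1B (0.26, SE 0.23) and GRIP1 (-0.20, SE 0.15) had the largest log2 differences. Of the 6 shedding proteases, 5 were tested, with ADAM10, which cleaves ephrins, at 39.1 TPM in A549 MOCK and ADAM17 at 26.6. MMP14 differed by -0.15 on the log2 scale.

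**Figure D5:**
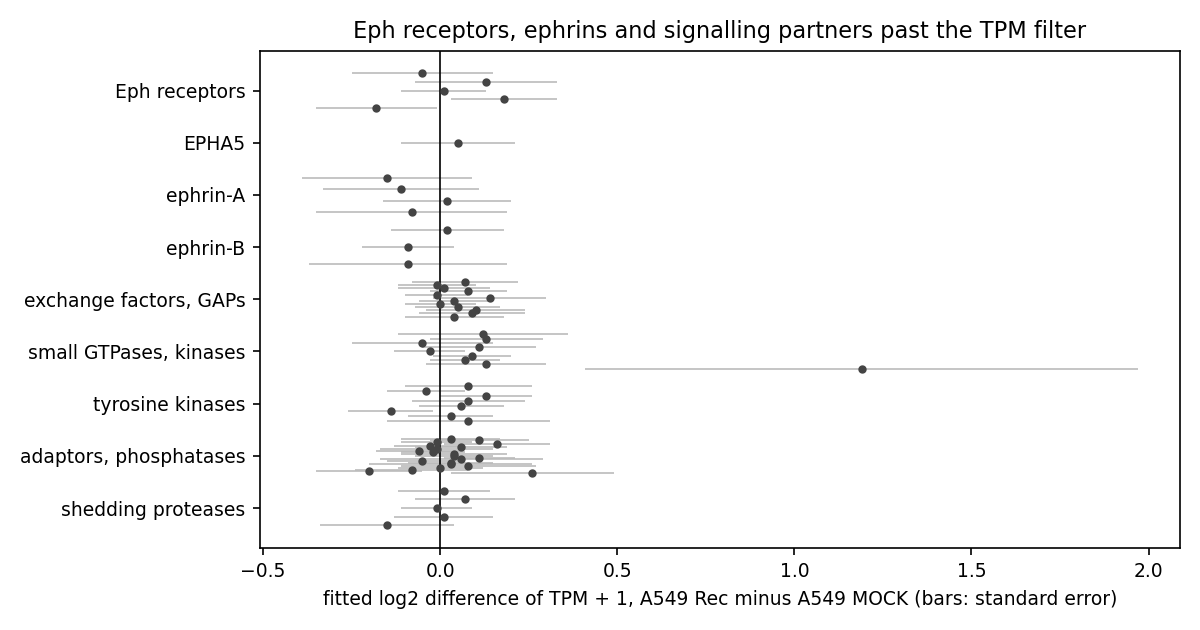
Fitted log2 difference of TPM + 1, A549 Rec minus A549 MOCK (x axis, bars for the standard error), for the Eph receptors, ephrins and signalling partners past the TPM filter, each point a gene and each row a list, with higher mean TPM further up within a row. The points crowd around 0 apart from HRAS at 1.19 with an SE of 0.78, and no point was called.

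The genes whose values over the 6 libraries were most like those of EPHA10 were STAC and 4 genes known by clone or antisense names. Over log2(TPM + 1) the Pearson r was 0.995 for AC007128.2, 0.984 for AL121890.5, 0.983 for LURAP1L-AS1, 0.976 for AL450384.2 and 0.975 for STAC. Being picked as the highest of 17408 genes over 6 libraries that fall into groups of 3, these coefficients are a description. STAC was at 3.66, 3.51 and 3.12 TPM in A549 MOCK, against 2.60, 2.45 and 2.50 in A549 Rec. Within the family EPHA4 was nearest (r = 0.760) and EPHB3 farthest (r = -0.615). EPHA4 was lower and EPHB3 higher in A549 Rec in each pair. The fall that chose EPHA10 enters these coefficients too, so they are also a description.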

How the data were processed

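RNA sequencing of A549 Rec (3 libraries) and A549 MOCK (3 libraries) was used. The groups and replicate numbers follow the labels, which do not say that libraries came from separate cultures, so p-values measure the spread between these libraries, which may be technical. The kit named in the labels keeps strand. The authors used FastQC 0.11.7, Trimmomatic 0.38, HISAT2 2.1.0 and featureCounts 1.6.3 per the submitters' processing notes, with GRCh38 in their methods, and deposited TPM. The annotation release and strand setting are not given in the sources used here. The notes list a mouse build, while the deposited coordinates are human.

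TPM, as deposited, was tested with limma 3.58.1 in R 4.3.3 (trend, log2(TPM + 1), two-sided, Benjamini-Hochberg) on the 17408 genes that reached 1 TPM in 3 or more of the 6 libraries. The fold changes on that scale understate those of low genes. Single receptors had an exact permutation test on TPM. Reads were recovered from the TPM steps (tolerance 0.01), choosing for each gene a length that gives whole reads, for 29899 of 29900 detected genes, 14535 of them with the GENCODE v44 exon length, and were given to limma-voom. PCR copies were not told apart, so intervals and the floor of 3 reads cover counting error only. Fits and recovery were tested on simulated data.

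The labels number replicates 1, 2 and 3 in both groups, and same-numbered libraries deviated together from their group means (r = 0.115, 0.164 and 0.342), so the block with the replicate number was also fitted. The members and gene lists were chosen with earlier results of these data known. Named are all members, ephrins and other Eph receptors, from each signalling list the 3 genes of highest mean TPM and the 2 with the largest absolute log2 difference, the 5 genes most correlated with EPHA10, and RCVRN. Some items under these rules are not reported here. CDC42, TIAM1, EPCAM, KRT19, CD14, COL1A1 and SNAP25 were named after their values were seen. Motif stretches were aligned to EPHA2 with Biopython 1.88. Alternatives were another pseudocount, filter, scaling, trend, block, call rule and leaving out each library. Those on genes with at least 10 reads and at any fold change of an unadjusted p were added after seeing the data. The other call rules combined with the replicate block were also added then.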

Additional observations from a re-analysis of the deposited data

How the results depend on the processing

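The count of genes called was 1 and stayed 1 under a pseudocount of 0.1, quantile normalization, rescaling without mitochondrial genes, the replicate block and limma-voom without a block. It was 6 without the filter on low TPM and 6 without trend, 3 with limma-voom on genes of at least 10 reads and the replicate block, and 1 to 2 with each library left out, 2 being without A549 Rec replicate 2. With an unadjusted p it was 93 at 2-fold or more (47 higher), 107 with the replicate block, and 359 at any fold change and 715 with the replicate block (396 higher). The block changed no other call.

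The EPHA10 difference of -0.49 on the log2(TPM + 1) scale was -1.12 with a pseudocount of 0.1, -1.34 by limma-voom and -1.32 with the block, and -0.53 to -0.41 with each library left out. EPHB3 (0.18) gave 0.51, 0.61 and 0.60 under the same 3 settings, and 0.11 to 0.27 with each library left out (0.11 without A549 Rec replicate 2, 0.12 without A549 MOCK replicate 3). Differences near 0 changed sign: EPHB2 (0.01) was -0.03 after rescaling without mitochondrial genes, -0.01 by limma-voom on either filter and with the block, and -0.07 to 0.08 with a library left out (-0.07 without A549 MOCK replicate 3, -0.02 without A549 Rec replicate 2 or 3). With a library left out, EPHA2 ran from -0.18 to 0.14 (0.14 without A549 MOCK replicate 3, 0.05 without A549 Rec replicate 1), EPHB4 from -0.07 to 0.25 (-0.07 without A549 MOCK replicate 3) and EPHB6 from -0.07 to 0.17 (-0.07 without A549 MOCK replicate 2). The cause was not tested. EPHA1 (0.07 to 0.26) and EPHA4 (-0.21 to -0.14) kept their sign with each library left out. Depth limits EPHA10, EPHB3, EPHB6 and EPHB1, which had 162, 56, 124 and 3 reads over the 6 libraries.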
